A study of Homo sapiens with 3 samples.

Results

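The 10 genes described here are markers and regulators of the endothelial and blood lineages: the receptors KDR, FLT1, TEK and TIE1, the surface proteins CDH5, PECAM1 and CD34, and the transcription factors TAL1, RUNX1 and GATA1. They were chosen by name, as the array probes annotated with these symbols, and all 10 of 10 were found, each read by 1 probe, among 16225 named genes. The samples were undifferentiated cells of 3 human embryonic stem (ES) cell lines, ES01, BG03 and H9, with 1 Illumina bead array per line. All were grown on irradiated mouse embryonic fibroblast feeders in a medium with serum replacement and FGF2, with no treatment or genetic change named in the labels, and the design text calls them biological replicates. Mouse ES cells and epiblast stem cells were the study's other arm and are not analysed here. Since each line was read once, differences of line, culture and array cannot be told apart.

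Blood and vessel cells share an early history: both arise from mesoderm, and the first blood stem cells bud from endothelium. Vascular endothelial growth factors (VEGFs) signal through KDR and FLT1, angiopoietins signal through TEK with TIE1 as its partner, and TAL1, RUNX1 and GATA1 then install the blood programme. In differentiating ES cell cultures, KDR and CD34 are widely used to sort the progenitors of both lineages, so their level in the undifferentiated state is the baseline from which such sorts start.

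Intensities are in array units after quantile normalization, which gives each array the same distribution, with background already subtracted, so that values below 0 occur. A gene was called above background on an array where it exceeded the 95th percentile of 215 olfactory receptor probes, which was 13.3 units in ES01, 12.6 in BG03 and 11.2 in H9. ES cell identity genes were above it in all 3 lines for 13 of 14 measured genes, beside 59.8% of all named genes. LIN28A, DNMT3B, NANOG and POU5F1 were among the 13, and the SOX2 probe was the exception. Each line's array carried 41 to 43 beads for the median bead type. The number of named genes above background was 10245 in ES01, 10299 in BG03 and 10444 in H9. Quantile normalization and a threshold set per array tend to make such counts alike, so they do not check array quality. In the values as deposited, the median was 4.4 units in ES01, 3.5 in BG03 and 3.5 in H9. Values below 0 made up 26.3%, 32.8% and 33.8% of these arrays, so ES01 stood somewhat apart before normalization.

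Of the 10 genes, 3 were above background in all 3 lines, KDR, FLT1 and TEK, all of them receptor tyrosine kinases, whereas the share over all named genes was 59.8%. PECAM1 passed the threshold in BG03 alone, which brought the count above background in at least 1 line to 4 of 10, beside 67.8% of all named genes. TIE1, CDH5, CD34, TAL1, RUNX1 and GATA1 were above it in no line. Whether these probes read their transcripts was not checked, so a gene not above background is not shown to be absent. In bulk RNA, a few cells with much of a transcript and many cells with little of it cannot be told apart.

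**Figure D1:**
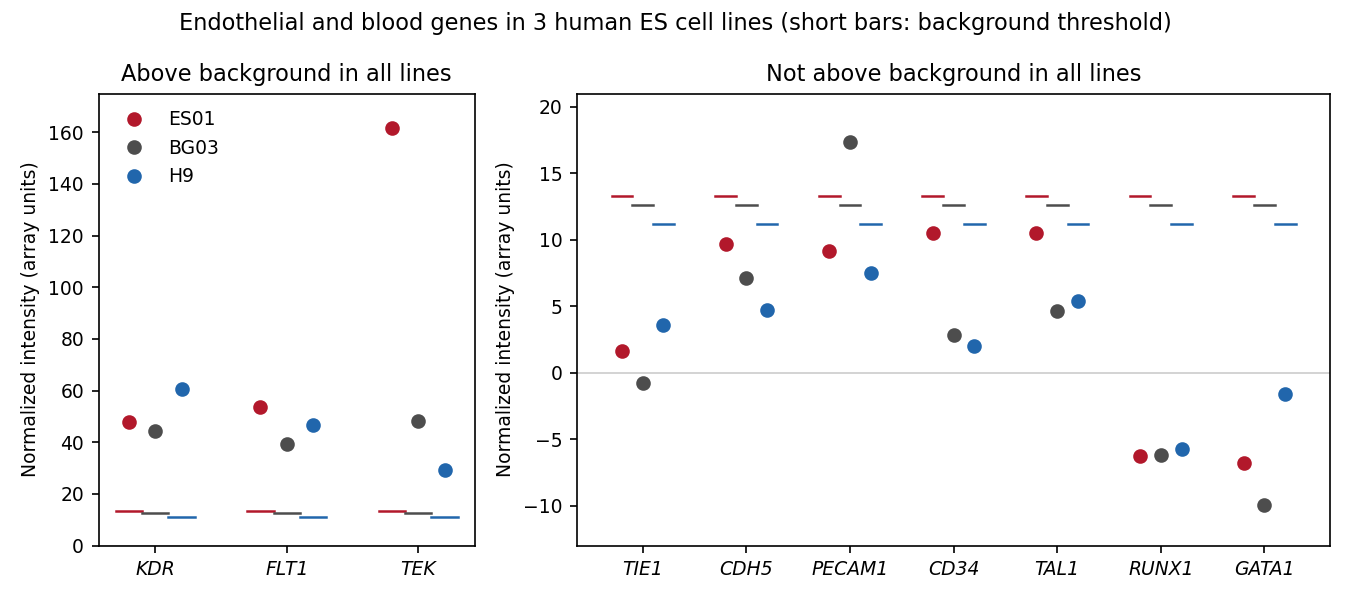
Normalized intensity (array units, linear axes) of the 10 genes in ES01, BG03 and H9, with 1 point per line and a short bar at that array's background threshold. KDR, FLT1 and TEK lie above the bars in all 3 lines, TEK is highest in ES01 at 162 units, and PECAM1 crosses its bar in BG03 at 17.4 units.

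KDR, the main signalling receptor for VEGF-A, had an intensity of 47.9 units in ES01, 44.4 in BG03 and 60.6 in H9. All 3 values were over 3 times the array's threshold (3.62, 3.53 and 5.41 times in ES01, BG03 and H9), and 1 or 2 of the 215 olfactory receptor probes on each array were as bright. H9 was the highest line, and the log2 difference was -0.34 between ES01 and H9, 0.11 between ES01 and BG03 and -0.45 between BG03 and H9 (log2 SD over lines 0.23, n = 3). When same-median scaling replaced quantile normalization, the difference between ES01 and BG03 turned to -0.21. FLT1, another VEGF receptor, which binds its ligand tightly, signals weakly and also exists in a soluble form, was at 53.8 units in ES01, 39.2 in BG03 and 46.8 in H9. Here ES01 was highest and BG03 lowest, with log2 differences of 0.20 between ES01 and H9, 0.46 between ES01 and BG03 and -0.25 between BG03 and H9 (log2 SD 0.23, n = 3), and under that scaling the first of these turned to -0.11. Both receptors were thus above background in every line, and neither differed 2-fold between any lines.

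The promoters of these 4 receptors are shown because they set the genes read above background beside TIE1, which was not. Each is 300 bases from RefSeq (GRCh38.p14), 250 before the transcript start and 50 after it, read 5′ to 3′ on the gene's strand, with every CG dinucleotide in capitals. KDR lies on the minus strand at chr4:55125546-55125845, FLT1 on the minus strand at chr13:28495079-28495378, TEK on the plus strand at chr9:27108975-27109274 (the more upstream of 2 listed starts) and TIE1 on the plus strand at chr1:43300732-43301031.
KDR: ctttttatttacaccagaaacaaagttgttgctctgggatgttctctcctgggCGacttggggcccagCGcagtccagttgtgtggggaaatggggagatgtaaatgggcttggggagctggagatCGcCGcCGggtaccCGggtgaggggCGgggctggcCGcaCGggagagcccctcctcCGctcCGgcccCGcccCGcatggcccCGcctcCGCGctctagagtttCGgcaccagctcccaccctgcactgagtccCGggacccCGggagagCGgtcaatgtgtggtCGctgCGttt
FLT1: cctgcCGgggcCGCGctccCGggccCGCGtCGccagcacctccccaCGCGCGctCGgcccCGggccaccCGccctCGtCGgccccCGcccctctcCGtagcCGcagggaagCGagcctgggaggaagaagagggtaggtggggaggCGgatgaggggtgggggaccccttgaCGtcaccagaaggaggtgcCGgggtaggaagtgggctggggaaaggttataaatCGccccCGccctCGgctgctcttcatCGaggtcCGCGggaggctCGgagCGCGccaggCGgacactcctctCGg
TEK: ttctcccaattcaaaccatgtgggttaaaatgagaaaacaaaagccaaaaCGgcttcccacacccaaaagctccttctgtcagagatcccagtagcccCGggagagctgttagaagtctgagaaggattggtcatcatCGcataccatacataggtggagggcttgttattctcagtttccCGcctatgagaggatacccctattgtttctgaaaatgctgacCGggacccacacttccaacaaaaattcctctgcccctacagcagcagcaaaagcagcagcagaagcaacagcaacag
TIE1: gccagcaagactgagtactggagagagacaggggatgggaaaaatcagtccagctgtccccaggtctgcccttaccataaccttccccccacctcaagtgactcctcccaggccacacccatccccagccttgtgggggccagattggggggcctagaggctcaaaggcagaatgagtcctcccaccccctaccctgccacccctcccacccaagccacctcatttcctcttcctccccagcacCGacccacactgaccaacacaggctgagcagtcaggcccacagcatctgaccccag

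TEK, the angiopoietin receptor also called TIE-2 and made by endothelium and some blood stem cells, was the one member that differed at least 2-fold between lines. Its intensity was 162 units in ES01, 48.15 in BG03 and 29.4 in H9, that is 12.2, 3.83 and 2.62 times the threshold of each array. ES01 stood alone at the top, and BG03 lay nearer to H9 than to ES01. TEK was 5.50-fold higher in ES01 than in H9 (log2 difference 2.46), 3.36-fold higher in ES01 than in BG03 (1.75) and 1.64-fold higher in BG03 than in H9 (0.71), with a log2 SD over lines of 1.27 (n = 3). The first 2 of these share the ES01 array. In each of them, 1 of the 4 members above background in some line differed at least 2-fold, beside 5.14% of 11004 genes between ES01 and H9 and 3.75% between ES01 and BG03; between BG03 and H9 it was 0 of 4, beside 3.24%. By size, the TEK difference was larger than that of 99.63% of those genes between ES01 and H9 and 99.53% between ES01 and BG03. Set against the mean of the other lines, 25 of 11004 genes, TEK included, were at least as far up in ES01 as TEK. Of 15 fibroblast and stroma markers above background in some line, 3 were at least 2-fold higher in ES01 than in H9 and 0 lower, and 4 were higher and 1 lower in ES01 than in BG03, beside the same 5.14% and 3.75% of genes in either direction; their part in the TEK reading was not tested.

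The difference in TEK was large beside the error of reading an array. Bead types of like intensity in the bead files of the same arrays had a median standard error of up to 8.11 units at the level of TEK in ES01, 4.66 in BG03 and 4.18 in H9. In the values as deposited, ES01 and H9 differed by 131.6 units, with a combined bead error of 9.12, and ES01 and BG03 by 112.4 units, with a combined error of 9.35. For KDR and FLT1 the differences were between -2.28 and 2.25 times the combined bead error, and TEK between BG03 and H9 was 3.07 times it. Bead error covers the reading of 1 array each; it holds no culture or labelling differences and gives no test between lines. The bead codes are not linked to genes here, so these errors come from beads of like brightness and not from the TEK beads themselves.

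Whether a gene spread more over the 3 lines than others of its intensity was asked with a variance test in limma, and 0 of 11004 genes (0%) passed at an adjusted p under 0.05, with 516 at an unadjusted p under 0.05. For TEK, limma's variance test gave an unadjusted p of 0.011 and an adjusted p of 0.978. On data simulated with the spread of these arrays the test called no changed gene, also at folds larger than that of TEK, so these p-values do not tell whether TEK differed. The SD of TEK was larger than that of 98.0% of the 500 genes nearest to it in intensity, against 38.7% for KDR and 35.3% for FLT1. With no filter on dim genes the limma test called 405 genes, TEK among them. That setting adds the 5221 genes above background in no line. Their values were all raised to the thresholds, which gives each the same log2 SD of 0.124, so this call does not tell whether TEK differed. A count of 0 from 1 array per line does not show that genes were equal between lines.

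**Figure D2:**
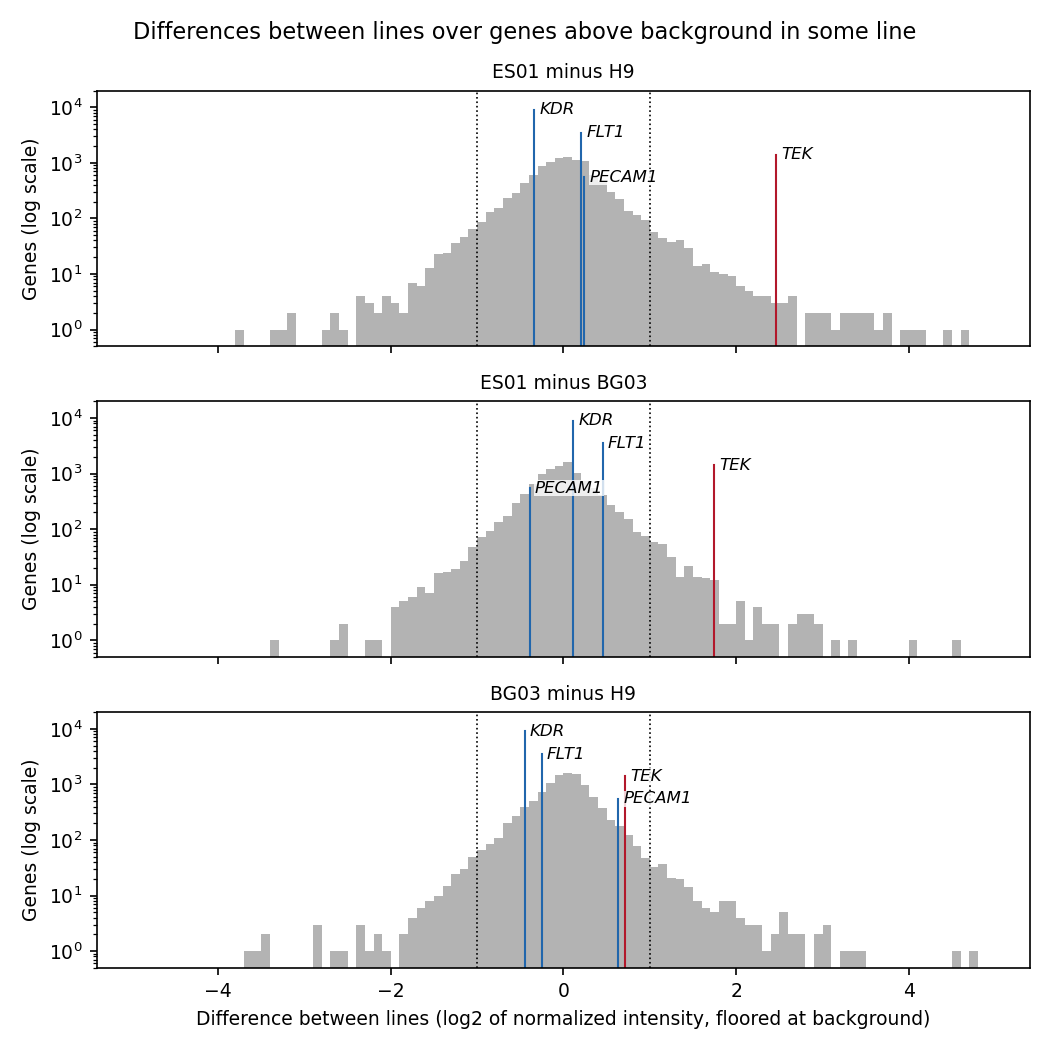
Histograms of the log2 difference between lines (x axis) over the 11004 genes read above background in some line, with gene counts on a log axis and 1 panel per pair of lines; vertical lines mark the 4 members tested and dotted lines a 2-fold difference. TEK lies beyond the dotted line in both ES01 panels, at 2.46 and 1.75, while KDR, FLT1 and PECAM1 stay between the dotted lines in all panels.

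TIE1, the receptor most closely related to TEK, was at background. It read 1.63 units in ES01, -0.77 in BG03 and 3.60 in H9, and 86, 108 and 57 of the 215 olfactory receptor probes on those arrays were at least as bright. No line reached its threshold. The high TEK reading in ES01 was therefore not accompanied by a reading of its partner receptor above background.

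Of the endothelial surface genes, CDH5, the cadherin that holds endothelial junctions together, read 9.67 units in ES01, 7.10 in BG03 and 4.73 in H9, all under the thresholds. PECAM1, an adhesion molecule of endothelium, platelets and white blood cells, read 9.17 units in ES01, 17.4 in BG03 and 7.47 in H9. BG03 exceeded its threshold 1.38 times, with 3 of 215 olfactory receptor probes at least as bright. Taking the threshold for the values under it, PECAM1 was 1.55-fold higher in BG03 than in H9, a log2 difference of 0.63. The size depended on the floor: the difference was 0.39 with the highest threshold as floor on all arrays and 0 with a floor of 50 units. Without quantile normalization it was 0.57. In the deposited values BG03 and H9 differed by 9.5 units, 1.90 times the combined bead error. Over all named genes, 4.41% were above background in exactly 1 line, and with the 99th percentile of the olfactory receptor probes as threshold PECAM1 was above it in none. CD34, a sialomucin on blood progenitors and on vessels, read 10.5 units in ES01, 2.83 in BG03 and 2.0 in H9. ES01 was the highest line for CD34 and CDH5 but did not reach its threshold of 13.3 units, so no order of the lines is read from them.

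The blood transcription factors were not above background in any line. TAL1, a helix-loop-helix factor needed for all blood lineages, read 10.5 units in ES01, 4.63 in BG03 and 5.43 in H9. RUNX1, required for blood stem cells to emerge from endothelium, read -6.23, -6.20 and -5.73 units in ES01, BG03 and H9, below most background probes (177, 189 and 187 of 215 were at least as bright). GATA1, the zinc finger factor of red cells and platelet precursors, read -6.80, -9.97 and -1.57 units. The TAL1 probe lay nearer to its thresholds than these, with 19, 46 and 38 of 215 background probes at least as bright in ES01, BG03 and H9.

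The RUNX1 and GATA1 promoters are shown as the pair of unread transcription factor genes that lie furthest apart in CG content, in the same layout. RUNX1 is on the minus strand at chr21:34888650-34888949 and GATA1 on the plus strand at chrX:48786340-48786639. The RUNX1 window lies inside the gene, which spans 34787801 to 35049302, and not at its outermost start. Whether the transcript read by the probe starts there was not checked.
RUNX1: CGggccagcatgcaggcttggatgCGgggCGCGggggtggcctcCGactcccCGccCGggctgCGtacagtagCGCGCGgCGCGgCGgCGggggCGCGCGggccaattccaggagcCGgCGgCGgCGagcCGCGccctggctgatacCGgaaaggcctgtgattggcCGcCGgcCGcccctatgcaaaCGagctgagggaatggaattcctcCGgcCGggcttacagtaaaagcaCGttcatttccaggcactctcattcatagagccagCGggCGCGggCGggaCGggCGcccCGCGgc
GATA1: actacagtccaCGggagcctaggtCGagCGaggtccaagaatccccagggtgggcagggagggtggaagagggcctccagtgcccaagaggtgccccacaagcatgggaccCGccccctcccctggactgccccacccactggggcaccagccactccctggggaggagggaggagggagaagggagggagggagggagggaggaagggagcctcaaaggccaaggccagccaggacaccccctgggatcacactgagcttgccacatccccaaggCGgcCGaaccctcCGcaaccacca

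In the human genome, promoters rich in CG dinucleotides mark most widely used genes and many developmental regulators, and CG-poor promoters are more often tissue-restricted. The members with a listed promoter, 8 of 10 (CDH5 and PECAM1 were not matched), ranged widely: RUNX1 had 40 CG dinucleotides in 300 bases at its listed start inside the gene, FLT1 33, TAL1 30 and 19 at its 2 listed starts, KDR 22, CD34 19, GATA1 7, TEK 5 and 3 at its 2 starts and TIE1 1. Over 12963 measured genes, olfactory receptors left out, and taking each gene's promoter with most CG, the share above background in all 3 lines was 19.0% with 0 to 9 CG, 59.2% with 10 to 19, 76.3% with 20 to 29 and 75.9% with 30 or more. KDR and FLT1 were above background and lay in the last 2 of these classes, together with TAL1 and RUNX1, which were not. TEK, above background in all lines, lay in the class with the fewest CG, with TIE1 and GATA1. CG content of the listed promoters therefore did not separate the members that were read from those that were not.

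**Figure D3:**
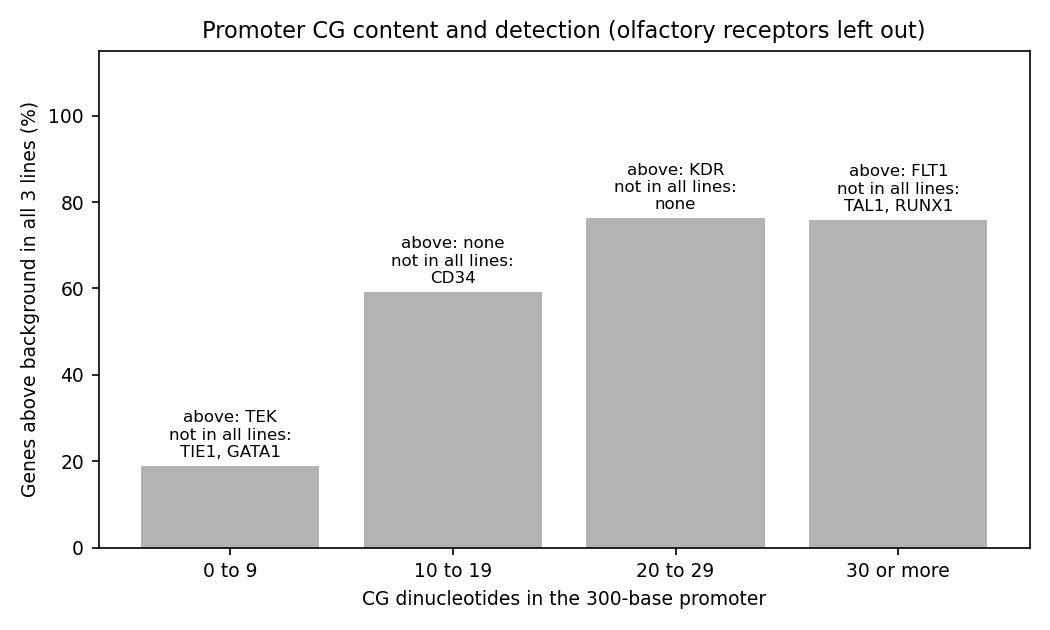
Share of measured genes above background in all 3 lines (%, bars from 0) by the number of CG dinucleotides in the 300-base promoter, with the members of each class written above its bar. The share is 19.0% in the lowest class, which holds TEK, and 75.9% in the highest, which holds FLT1 together with TAL1 and RUNX1.

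Short motifs of blood and endothelial factors were searched on both strands of the same promoters. The GATA letters AGATAA or TGATAA were in 2 of the 10 listed promoters of members (the second TEK start and the TAL1 promoter with 30 CG), beside 16.3% of all 35116 promoters. The ETS letters AGGAAG were in 4 of 10 (FLT1, TIE1, GATA1 and the TAL1 promoter with 19 CG), beside 33.6%. The RUNX letters TGTGGT were in 2 of 10 (KDR and the TAL1 promoter with 19 CG), beside 13.1%, and the E-box CAGNTG in 3 of 10 (KDR, TIE1 and CD34), beside 49.9%. None of these searches found any of the motifs in the upstream TEK promoter or in the listed RUNX1 promoter. A match describes the letters in this window and is no evidence of binding.

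The ligands and co-receptors of the KDR, FLT1 and TEK pathways were listed with other receptors and signalling genes, such as FLT4, APLNR and NOTCH4. Most of the list was at background. Of 18 listed genes, 5 (27.8%) were above it in all 3 lines, beside 59.8% of all named genes, and 12 in none. VEGFB, a ligand of FLT1, was read at 158 units in ES01, 139 in BG03 and 151 in H9, whereas VEGFA (3.67, -1.17 and 4.37), VEGFC, VEGFD and PGF were above background in no line. ANGPT1, the activating ligand of TEK, was at 52.7 units in ES01, 21.8 in BG03 and 40.1 in H9, above background in all and 2.42-fold higher in ES01 than in BG03, and the second TEK ligand ANGPT2 (2.70, 8.22 and 10.1) was not above it. PTPRB, a phosphatase that acts on TEK, and the endothelial co-receptor ENG were not above background in any line.

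Among VEGF co-receptors, NRP1 was at 25.8 units in ES01, 24.7 in BG03 and 24.4 in H9. NRP2 was at 39.2 units in ES01 and 40.6 in BG03 and was not above background in H9, at least 3.50-fold higher in ES01 than in H9 and at least 3.62-fold higher in BG03 than in H9. That reading comes from 1 of 4 NRP2 probes; another was above background in all lines at 17.4, 30.03 and 17.5 units, and the other two in none, so the probes did not show the same difference. FLT4, the lymphatic VEGF receptor, was read at 249, 259 and 253 units by 1 of its 3 probes, and the other two were not above background in ES01 or BG03. APLNR, a receptor of mesoderm and angioblasts, was at 27.9, 41.2 and 19.2 units and 2.14-fold higher in BG03 than in H9.

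The next list holds partners of TAL1, RUNX1 and GATA1 together with other transcription factors, such as SOX17, HEY2 and HHEX, and was read about as often as any gene. Of 27 measured genes, 17 (63.0%) were above background in all 3 lines, near the 59.8% of all named genes. CBFB, the binding partner of RUNX1, was at 859 units in ES01, 922 in BG03 and 1077 in H9, TCF3, the helix-loop-helix partner of TAL1, at 949, 815 and 806, and the GATA1 cofactor ZFPM1 at 123, 120 and 134. LMO2 and LDB1, which bridge TAL1 and GATA factors, were dim at 21.4, 17.7 and 17.4 and at 21.7, 23.6 and 21.4 units. LYL1, a relative of TAL1, passed the threshold narrowly in BG03 (13.5 units) and H9 (13.6) and not in ES01 (10.3). Of the ETS factors that act in endothelium, ETV2 was dim but above background in all lines (19.0, 23.7 and 24.4 units). FLI1 (15.0, 13.9 and 11.3) was just above background, in H9 by less than 0.1 units. ERG was above background in no line, and neither was GATA2. In this list RUNX1T1, a co-repressor named as a fusion partner of RUNX1 in leukaemia, was 2.10-fold higher in ES01 than in H9 (116 against 55.1 units, by 1 of 5 probes; another of its probes was above background in BG03 and H9 and not in ES01). HHEX, a homeobox factor of blood, endothelium and endoderm, was lower in ES01 (31.4 units, against 72.3 in H9), and MEF2C was lower in BG03 (13.5 units, against 32.1 in H9).

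Structural and surface genes of endothelial cells gave 9 of 25 (36%) above background in all 3 lines, beside 59.8% of all named genes. In none were 13 of 25, beside 5221 of 16225 named genes. Those in none included EMCN, ICAM2, ROBO4, NOS3, CLEC14A, PLVAP, SELE and SELP, several of which are largely restricted to endothelium. CLDN5, a tight junction protein of vessels, was above background in all lines at 18.1 units in ES01, 18.6 in BG03 and 25.55 in H9, as were THBD (31.8, 26.2 and 18.7), VCAM1 (19.9, 23.9 and 16.03) and PROCR (86.4, 73.4 and 54.2), and MMRN2 was above it in ES01 and BG03. The brightest, PDPN at 1530, 2035 and 1636 units in ES01, BG03 and H9, CAV1 at 225, 153 and 114 and EGFL7 at 255, 294 and 328, are also made by other cell types. VWF, the clotting factor carrier of endothelium and platelets, was lower in ES01 (27.5 units) and BG03 (24.3) than in H9 (58.3). EDN1, the vasoconstrictor endothelin, was higher in ES01 (83.7 units) and BG03 (99.9) than in H9 (18.4), a log2 difference of 2.19 between ES01 and H9 and 2.44 between BG03 and H9. ESAM, an endothelial adhesion molecule, was above background in ES01 alone at 24.8 units, at least 2.22-fold higher in ES01 than in H9. Over the 12 listed genes above background in some line, the median log2 difference was 0.49 between ES01 and H9, 0.15 between ES01 and BG03 and 0.37 between BG03 and H9. Over all 11004 genes these medians were 0.015, -0.006 and 0.025. Some of the 12, such as ESAM, entered only through lines where they were bright, with the other lines raised to the thresholds. The medians therefore do not show a shift of endothelial genes.

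Blood cell genes were the least often read of the lists. Of 27 measured genes, 2 (7.41%), ITGA2B and LCP1, were above background in all 3 lines, beside 59.8% of all named genes. ITGA2B, an integrin of platelets and early blood progenitors, was at 132, 147 and 220 units in ES01, BG03 and H9. The actin-bundling protein LCP1 was at 88.6, 55.3 and 46.9. Above background in none were 22 of 27, beside 5221 of 16225 named genes. Those 22 included the pan-leukocyte phosphatase PTPRC, SPN, all listed globin genes (HBA1, HBB, HBD, HBE1, HBG1, HBG2 and HBZ) and the red cell genes ALAS2 and SLC4A1. PF4, a platelet chemokine, was above background in ES01 (27.5 units) and H9 (12.3), 2.23-fold higher in ES01 than in H9 and at least 2.19-fold higher in ES01 than in BG03. Of 20 blood regulators, 7 (35%) were above background in all lines, beside 59.8% of all named genes: KIT, MYB, BCL11A, CEBPA, NFE2, EPOR and KLF1. MYB, a factor of blood progenitors and other dividing cells, was lower in ES01 than in H9 (127 against 268 units, log2 difference -1.08), as was the erythropoietin receptor EPOR (32.1 against 64.4 units, -1.005). The white cell factors SPI1 and IKZF1 were above background in no line.

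**Figure D4:**
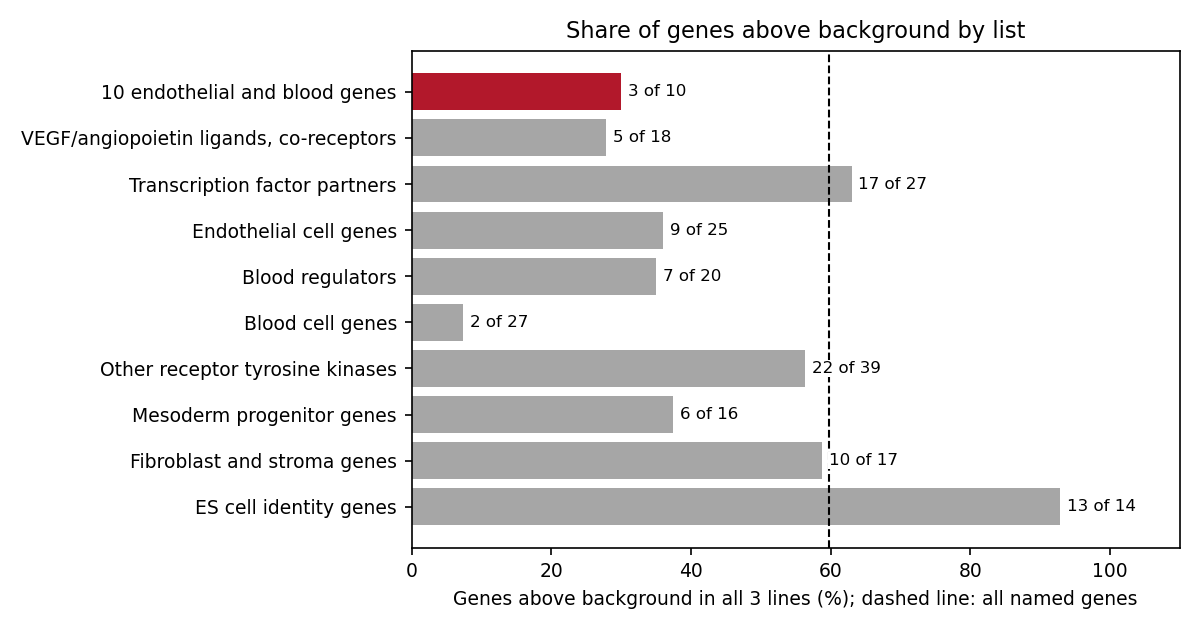
Share of measured genes above background in all 3 lines (%, bars from 0) for the 10 endothelial and blood genes and 9 other lists, with counts beside the bars and a dashed line at the 59.8% of all named genes. The 10 genes reach 3 of 10, blood cell genes 2 of 27 and ES cell identity genes 13 of 14.

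KDR, FLT1, TEK and TIE1 belong to the receptor tyrosine kinases, and 39 other members of that class were measured. Of these, 22 (56.4%) were above background in all 3 lines, near the share of all named genes. None of the 25 above background in some line differed 2-fold between any lines. Over 11004 genes the shares were 5.14% between ES01 and H9, 3.75% between ES01 and BG03 and 3.24% between BG03 and H9. With 25 genes, a count of 0 is near such shares. Between ES01 and H9, PDGFRB (1.95-fold) and PDGFRA (0.537-fold) came close to the cut. The median log2 difference of the 25 was -0.02 between ES01 and H9 and 0.05 between ES01 and BG03. TEK was at 2.46 and 1.75 for the same pairs. Of 16 mesoderm progenitor genes, 6 (37.5%) were above background in all lines, beside 59.8% of all named genes. MIXL1 (19.6, 17.0 and 15.7 units) was among the 6, and TBXT, MESP1 and TBX6 were above background in no line. HAND1, a factor of heart and extraembryonic mesoderm, was lower in ES01 (15.7 units) than in BG03 (34.7), a log2 difference of -1.15.

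The lines grew on mouse fibroblasts, and 10 of 17 markers of fibroblasts and stroma (58.8%, near the 59.8% of all named genes) were above background in all 3 lines, with COL3A1 and POSTN above it in none. Their summed intensity was 6655 units in ES01, 5160 in BG03 and 6375 in H9, most of it from VIM, FN1, TAGLN and THY1. COL1A1 (43.2, 22.0 and 18.6 units in ES01, BG03 and H9), TWIST1 (45.4, 24.5 and 9.67), PDGFRB (50.03, 35.5 and 25.7) and TAGLN (1153, 868 and 628) ran in the order of TEK. COL1A2 (582, 229 and 310) and ACTA2 (221, 85.4 and 107.8) were highest in ES01, as TEK was, and lowest in BG03. LOX (28.0, 9.17 and 22.4) was also highest in ES01 and lowest in BG03, where it was under the threshold. DCN was lowest in BG03 and LUM was highest there. LOX, DCN and LUM each differed at least 2-fold between some lines. Other markers ran otherwise: FN1 (1044, 959 and 1332.5), VIM (2104, 1476 and 2346) and COL6A1 (465.2, 465.4 and 710.6) were highest in H9, where TEK was lowest. DCN (26.4, -0.6 and 30.5) and FAP (9.9, 11.3 and 13.7) were also highest in H9. THY1 (824, 851 and 752) and S100A4 (45.1, 68.9 and 50.8) were highest in BG03. Among ES cell identity genes, UTF1 was highest in H9 and ZFP42 in BG03, both at least 2-fold. The part of feeder RNA or of other cells in these readings was not tested.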

How the data were processed

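Gene expression was measured on Illumina bead arrays, 1 per line, in 3 human ES cell lines. Per the labels' protocols, total RNA was extracted with TRIzol and labelled with Cy3. The authors deposited a table of 47293 probe intensities per array, on a linear scale and with values below 0; with software and scaling not given in the sources used here. The deposited bead files hold green intensities per bead and served for reading error only (beads past 3 median absolute deviations left out; 201 types nearest in level per file). Genes were named through the platform annotation for 18468 probes (28825 are unnamed here), with 18451 gene IDs found in RefSeq (GRCh38.p14). All probes but 4 bacterial controls were set to common quantiles (limma 3.58.1, R 4.3.3). For the 1614 genes with several probes the brightest on average was used. A value under its threshold was raised to it for log2. The variance test used limma's squeezed variances with an intensity trend (3.69 prior degrees of freedom), an F-test and Benjamini-Hochberg adjustment over 11004 genes; on simulated data with the spread of these arrays it recovered no changed gene, and with a tighter spread most of them. Pairs of lines, with 1 array each, were compared by size alone. All members were named, and of the other lists the direct partners and genes differing at least 2-fold between lines; other genes named as bright, as a count of 5 or fewer or as not above background were picked after their values were seen. The members, lists and rules were chosen with earlier results of these data known. Beads, promoters and figures were handled in Python 3.11.15 (pandas 2.3.3, numpy 2.4.6, matplotlib 3.10.9).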

Additional observations from a re-analysis of the deposited data

How the results depend on the processing

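KDR, FLT1 and TEK were above background in all lines in 7 of 8 alternatives. The exception was a second background set of 118 taste receptor, crystallin, keratin-associated and spermatogenesis probes, with thresholds of 66.9 units in ES01, 71.8 in BG03 and 47.4 in H9: 0 members were above it in all lines and 2 in at least 1 (TEK in ES01 and KDR in H9). Of its 28 spermatogenesis probes, 9 were above the olfactory receptor thresholds in all lines. Without them, an alternative chosen after seeing the data, the counts were 3 and 3. Leaving out each line gave 3 to 3 members above background in all remaining lines and 3 to 4 in at least 1; PECAM1 dropped out without BG03 and under the 99th percentile background. TEK was the only member past 2-fold, between ES01 and either other line, in all 8 alternatives of each pair, with log2 differences of 1.69 to 2.46 against H9 and 1.17 to 1.75 against BG03. Of 84 log2 differences of the 4 members under alternatives, 15 moved by more than the SD over lines, and none past 2-fold turned. Same-median scaling shifted the median of all genes between ES01 and H9 to -0.27, and turned FLT1 between ES01 and H9 to -0.11 and KDR between ES01 and BG03 to -0.21. It also turned PECAM1 between ES01 and H9, both under threshold, from 0.24 to -0.07, and moved KDR between ES01 and H9 from -0.34 to -0.64. Under the second background set, differences of KDR, FLT1 and PECAM1 were largely those of the thresholds. Under same-median scaling, genes at least 2-fold higher and lower in ES01 were 167 and 626 against H9 (319 and 247 as reported) and 110 and 497 against BG03 (250 and 163). The variance test called 88 genes with that scaling and 405 with no filter on dim genes, where 1 member, TEK, passed; leaving out each line gave 0 to 0 genes and 0 to 0 members, which says nothing of stability, since the test with all lines already lacked the power to call any gene; the cause of the other counts was not tested. No paired analysis was possible because the lines form 1 group. Single probes and 1 array per line limit every reading near background.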
